A study of Homo sapiens with 8 samples.

Results

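The comparison is between the regions of accessible chromatin called in G401 cells 7 days after SMARCB1 was switched on and those called before, on day 0. Its members are the 103182 peaks of the day 7 list and the 80744 peaks of the day 0 list, together 183926 of the 411408 peaks in the 4 lists of a doxycycline time course (days 0, 1, 3 and 7). A day 7 peak that shares no base with any day 0 peak is called gained, a day 0 peak that shares no base with any day 7 peak is called lost, and all others are kept. G401 is an established human cell line of renal rhabdoid tumour origin. The day 7 cells, labelled SMARCB1 +/+, had been treated with 1 µg/ml doxycycline to induce SMARCB1 from a stable inducible construct, and the day 0 cells of the same inducible line, labelled SMARCB1 -/-, had not. Both were grown in medium with tetracycline-free serum. Each day has 2 replicates in the labels, which do not say whether they were separate cultures or whether the stable line is a single clone. Day 7 cells differ from day 0 cells by the drug, the restored protein and a week of culture, and these cannot be told apart.

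SMARCB1 is a core subunit of SWI/SNF, a complex that uses ATP to move and evict nucleosomes and so opens DNA to transcription factors. Its loss is the defining genetic lesion of rhabdoid tumours, and SWI/SNF without SMARCB1 is known to be impaired at enhancers in particular. ATAC-seq reads out open DNA through a transposase that inserts adapters where nucleosomes are absent. A peak is a stretch where reads pile up above the local background, so a gained or lost peak is a crossing of the calling limit and not by itself a measured change in height.

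With 1 list per day no value has an error between replicates and no test was possible. All intervals are 95% intervals. Intervals of shares are exact (Clopper-Pearson) and treat peaks as independent, whereas intervals of ratios reflect only the number of reads at the summits. The height of a peak is given on a pair of scales. The fold is the authors' value, the summit over its own local background. The scaled summit is the number of reads at the summit divided by the genome-wide background of the list, which was 6.10 reads on day 7 and 6.34 reads on day 0, so depth was similar. The smallest called summit held 18 reads on day 7 and 18 on day 0. The narrowest peak was 200 bp wide in both lists. The list that names no day was taken as day 0 by elimination, and all statements on day 0 rest on that.

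Most day 0 peaks were still called on day 7, and more peaks were gained than lost. Of the 103182 day 7 peaks, 36734 were gained, or 35.6% (35.3 to 35.9). Of the 80744 day 0 peaks, 14129 were lost, or 17.5% (17.2 to 17.8). Gained peaks covered 24.7% of the bases in day 7 peaks, and lost peaks covered 8.47% of the bases in day 0 peaks, or 4.11 Mb. The median width was 339 bp for gained peaks and 265 bp for lost peaks, against 519 bp for kept day 0 peaks. With a -log10 q of at least 5 in both lists, 31042 peaks were gained and 11025 lost, and with the same -log10 p limit in both, 36727 were gained and 14130 lost. Cutting both lists to the 80744 peaks with the highest -log10 q gave 21397 gained and 20770 lost. But lists of equal length whose kept peaks pair nearly 1 to 1 must give near equal numbers, so this says nothing of the excess. By the same pairing, the excess of gains over losses in the full lists is close to the difference in their lengths.

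Lost peaks lay closer to the weak end of the day 0 list than gained peaks did to that of the day 7 list. The folds of gained peaks had quartiles of 2.88 and 4.13 and a median of 3.38, and those of lost peaks had quartiles of 2.51 and 3.33 and a median of 2.92. In reads, the median summit was 33 for gained peaks and 31 for lost peaks, against 65 and 66 for the kept peaks of days 7 and 0. Among peaks with a fold of 3 to 3.5, 52.7% of day 7 peaks were gained and 29.6% of day 0 peaks were lost. At a fold of 5 to 6 the shares were 21.3% gained and 1.22% lost. At a fold of at least 8, 404 of 5756 day 7 peaks were gained (7.02%, 6.37 to 7.71) and 0 of 5527 day 0 peaks were lost, which allows a share of up to 0.0667%. In the day 7 list 68.3% of peaks under 250 bp and 790 of 14441 peaks of at least 1000 bp (5.47%) were gained. Of day 0 peaks under 250 bp, 56.4% were lost, and of those of at least 1000 bp 3 of 12781 were. Gains thus reached into the broad and strong part of their list, where few losses were found.

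**Figure D1:**
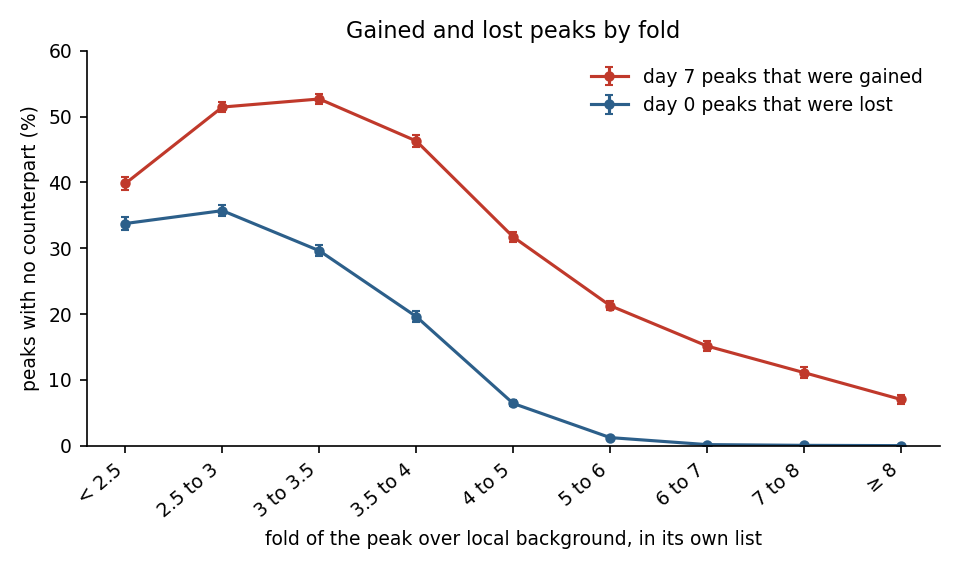
Share of peaks with no counterpart in the other list (vertical axis, %) by the peak's fold over local background in its own list (horizontal axis), for gained day 7 peaks and lost day 0 peaks; bars are exact 95% intervals over peaks. Both curves are highest among weak peaks, and at folds of 5 to 6 the gained share is 21.3% while the lost share is 1.22%.

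The lists of days 1 and 3, which did not enter the definition of gains and losses, place each of them in the time course. They are compared with the same pair of lists, so the days are given side by side. Most gained peaks had been called earlier: 19905 of 36734 (54.2%) overlapped a peak on both days, 7043 (19.2%) on day 3 only, 2092 (5.70%) on day 1 only, and 7694 (20.9%) on neither. The absences of lost peaks were spread over the whole course, as crossings of the calling limit and not as measured times of closing. Of the 14129 lost peaks, 7817 (55.3%) already had no peak on day 1, and 1590 of these had a peak on day 3 before being absent on day 7. A further 2566 (18.2%) were last seen on day 1, and 3746 (26.5%) were present on days 1 and 3 and absent only on day 7. Among kept day 0 peaks 93.4% were present on both intermediate days.

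The share seen on days 1 and 3 was larger among stronger peaks on both sides. Of gained peaks with a fold of at least 6, 2090 of 2228 (93.8%) were present on days 1 and 3, against 40.8% of those with a fold under 3. Of lost peaks with a fold of 4 to 5, 52.0% were still present on days 1 and 3, against 23.3% of those under 3. Kept day 0 peaks of the same fold of 4 to 5 were present on both days in 97.0% of cases. That comparison is not matched, because kept peaks are by definition called again on day 7. Equal fold is also not equal height: at a fold of at least 4, kept peaks called on days 1 and 3 had taller summits, as given below. The lost peaks that lasted through days 1 and 3 had a median scaled summit of 5.36 (day 0), 5.79 (day 1) and 5.20 (day 3). Those with a fold of at least 4, 482 in number, had medians of 5.20, 4.80 and 4.46 in the same order. Kept day 0 peaks of that fold had medians of 12.5, 13.7 and 12.3. The median log2 ratio of day 3 over day 1 was -0.12 in these lost peaks and -0.16 in these kept peaks. A lower scaled day 3 summit was thus not particular to the losses. The genome-wide background was 6.04 reads on day 1 and 6.73 on day 3, so equal reads give a lower scaled summit on day 3. These ratios therefore do not show that day 3 summits held fewer reads. Peaks below the limit of a list have no summit value, so these medians hold only peaks that were still called.

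**Figure D2:**
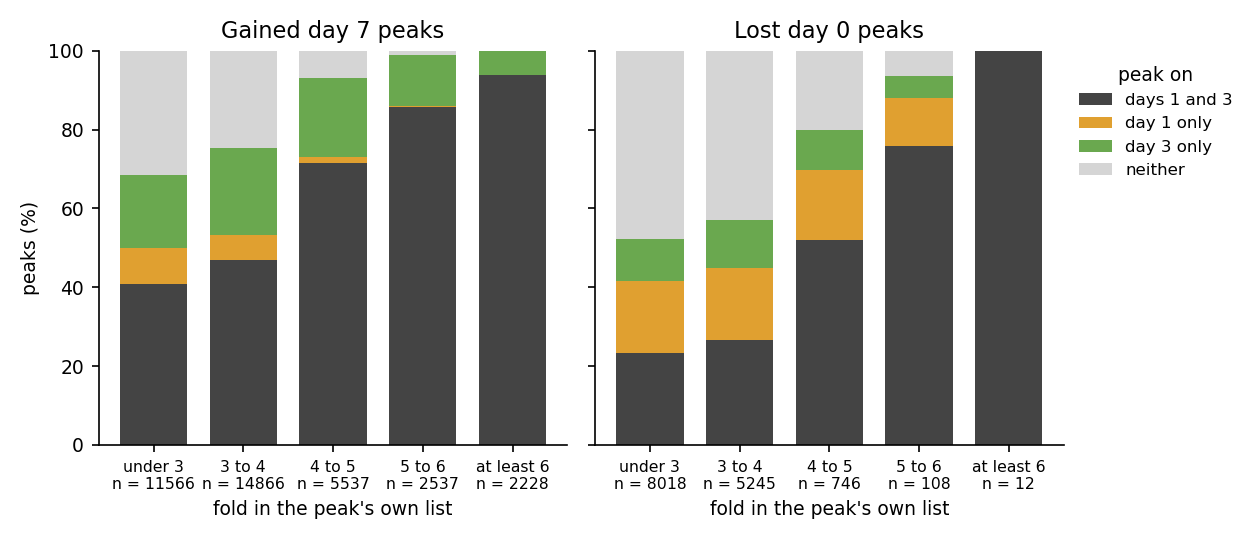
State of gained day 7 peaks (left) and lost day 0 peaks (right) in the lists of days 1 and 3, as stacked shares of peaks (%), by the peak's fold in its own list, with the number of peaks under each bar. The share present on both days is larger in each higher fold class on either side, and all 12 lost peaks with a fold of at least 6 were present on days 1 and 3.

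Of day 7 peaks with a fold of at least 6, 2228 of 19229 were gained, and of day 0 peaks of that strength 12 of 16548 were lost. These 12 were 326 to 631 bp wide, and 10 of them stood on the genome-wide background with no raised surroundings. Each was still called on days 1 and 3, with a scaled summit below that of day 0 on both days. Their summits held 44 to 59 reads on day 0 (median 47), 25 to 51 on day 1 (median 34.5) and 23 to 52 on day 3 (median 32.5), and on day 7 no peak was called. These 12 were picked for a high day 0 fold and absence on day 7, so lower summits in the other lists can follow from that choice.

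The strongest lost peak lay at chr7:149015066-149015625 (hg19, as all coordinates here), with 57 reads and a fold of 7.75 on day 0, 49 reads and 7.10 on day 1, and 33 reads and 4.40 on day 3. Its nearest day 7 peak was 7.28 kb away. At chr17:2878718-2879118 the summit had 49 reads on day 0, 35 on day 1 and 23 on day 3, an order repeated at chr10:76736240-76736599 (47, 41 and 31 reads) and chr5:44952436-44952823 (45, 37 and 27 reads). These sites were lower on each successive day. At chrX:134846948-134847384 the reads were 48, 32 and 30. Other sites were lower on day 1 and similar on day 3, such as chr20:37314544-37314909 (47, 33 and 33 reads), chr20:43864714-43865138 (46, 30 and 32 reads) and chr2:213727921-213728291 (44, 34 and 36 reads). The 2nd lost peak on chromosome 2, chr2:156113253-156113722, had 47, 43 and 48 reads, scaled summits of 7.41, 7.12 and 7.14, and was absent only on day 7. Chr16:47144882-47145207 had 44, 25 and 29 reads, and chr5:89854289-89854919 had 45, 31 and 40. At chr16:88281139-88281720 the summit had 59, 51 and 52 reads, but its local background was 1.12 times the genome background on day 0 and 2.31 and 2.92 times on days 1 and 3, so its fold of 7.41 on day 0 stood against 3.47 and 2.57 later. The other 11 had no such rise in local background.

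The tallest lost summits were of another kind. The 3633 gained peaks with a scaled summit of at least 10 had a median fold of 4.42 over a local background of 2.68 times the genome level, and 67.6% of them lay within 10 kb of a day 0 peak. The 1366 lost peaks of that height had a median fold of 1.98 over a local background of 6.03 times the genome level, and 99.6% of them lay within 10 kb of a day 7 peak. The 5 lost peaks with the most reads were chr19:18544812-18545184 with 189 reads and a fold of 1.53, chr14:105952197-105952449 with 167 reads and 1.74, chr14:105945305-105945599 with 160 reads and 1.53, chr1:28837947-28838482 with 157 reads and 2.00, and chr19:42785541-42785805 with 154 reads and 1.62. At the first of these the summit held 169 reads on day 1 and 176 on day 3, and the local background was 19.4 times the genome level on day 0. Of the other 4, chr14:105952197-105952449 had a peak on day 1 but not on day 3, and chr19:42785541-42785805 had none on either day. Whether the difference lay in the summit or in its surroundings was not tested.

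Among gains, the 15 peaks with the highest day 7 folds ranged from 10.6 to 12.5, had no day 0 peak, and were all present on days 1 and 3. Their scaled summits ran from 5.30 to 23.2 on day 1 (median 12.2), 10.1 to 22.5 on day 3 (median 18.9) and 12.3 to 19.3 on day 7 (median 14.4). By scaled summit, 13 of the 15 were lower on day 7 than on day 3, and 5 were lower on day 7 than on day 1. The pair that was higher on day 7 than on day 3 by scaled summit was chr3:140247862-140248721, with 32, 68 and 82 reads on days 1, 3 and 7, and chr7:106175673-106176634, with 74, 111 and 104 reads. The site on chromosome 3 had the lowest day 1 summit of the 15. At chr1:243368304-243369054 the reads were 72, 135 and 104, at chr9:79433081-79433650 they were 67, 114 and 78, and at chr2:41086752-41087527 they were 71, 118 and 76, all with the highest value on day 3. Chr1:12911485-12912265 had the largest day 7 summit of the 15, with 118 reads and a fold of 10.6. A pair of these regions lay far from any day 0 peak, chr2:186834987-186835807 by 231 kb and chr3:140247862-140248721 by 207 kb. At the nearest, chr7:106175673-106176634, the gap was 6.21 kb.

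The gained peaks with the most reads included sites on raised ground. Chr17:34052831-34054350 had 136 reads over 1520 bp with a fold of 3.25, and chr11:62196262-62196736 had 135 reads with a fold of 2.59. Chr10:11940141-11940938 combined height with contrast, at 132 reads and a fold of 7.21, after 80 reads on day 1 and 132 on day 3. The remaining 2, at chr11:842835-843057 with 135 reads and chr14:105558032-105558307 with 134, had folds of 1.60 and 1.80 and lay within 1 kb of a day 0 peak.

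Gained peaks lay further from the other list than lost peaks did. The median gap was 8.99 kb from a gained peak to the nearest day 0 peak and 4.82 kb from a lost peak to the nearest day 7 peak. In all, 46.8% of gained peaks lay more than 10 kb from any day 0 peak, and 25.7% of lost peaks lay more than 10 kb from any day 7 peak, where the day 7 list is the longer one. Lost peaks were about as crowded by other peaks of their own list as kept peaks were, with another day 0 peak within 10 kb for 68.1% of lost and 68.4% of kept peaks. Few gains and losses were exchanges of neighbouring sites: 5.88% of lost peaks (5.50 to 6.28) had a gained peak within 1 kb, against 4.50% (4.34 to 4.66) of kept day 0 peaks. At the border of the overlap rule, 106 lost peaks lay within 50 bp of a day 7 peak and 195 kept day 0 peaks shared at most 50 bp with one. These lost peaks had a median of 34 reads and these kept peaks 32.

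Gained peaks lay in runs more often than lost peaks did, but there were more of them to join, 36734 against 14129. More peaks give more runs at the same limit, and runs were not compared at equal numbers. Joining peaks no more than 10 kb apart gave 1986 groups of at least 3 gained peaks, holding 19.2% of them, and 217 groups of at least 3 lost peaks, holding 4.88%. The longest run of gains was chr3:140758465-140823533, where 16 gained peaks spanned 65.1 kb around 1 lost day 0 peak and no kept one. Of the 16, 5 had a peak on day 1 and 10 on day 3. At chr18:56236847-56296500, 14 gained peaks spanned 59.7 kb with 0 day 0 peaks, 5 of them with a peak on day 1 and 9 on day 3, and at chr5:153591313-153652894 there were 12 over 61.6 kb, 9 of them with a peak on day 1 and 10 on day 3. Runs of 9 lay at chr5:148760270-148796926 and chr17:34206850-34248498, each with 2 kept day 0 peaks.

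The longest runs of losses held 5 peaks, and there were 7 of them. At chr3:31938116-31950661 all 5 day 0 peaks over 12.5 kb were lost and no day 7 peak was called, with 2 of the 5 seen on day 1 and 3 on day 3. The run at chr1:31658595-31688858 was alike, with 5 of 5 day 0 peaks lost over 30.3 kb, 2 of them seen on day 1 and 3 on day 3. Runs at chr15:90038210-90058542, chr6:82887184-82911732 and chr2:150961663-150977389 each kept 1 of 6 day 0 peaks. None of the 5 lost peaks on chromosome 6 was seen on day 1, and 1 was seen on day 3. The run at chr19:18599205-18620765 kept 1 of 6, and that at chr10:3102327-3128726 kept 5 of 10. The lost peaks of these 7 runs were weak, all with a fold under 4.

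Most kept regions had nearly the same height on both days. Overlapping day 7 and day 0 peaks joined into 65396 kept regions, of which 63288 held a single peak of each day, 921 held several day 7 peaks and 1 day 0 peak, and 1082 held 1 day 7 peak and several day 0 peaks. In the single pairs the summit lay a median of 33 bp apart on the 2 days, and the median width ratio of day 7 over day 0 was 1.01. Width was at least doubled on day 7 in 2223 pairs (3.51%) and at most 0.5 times that of day 0 in 653 (1.03%). The log2 ratio of scaled summits, day 7 over day 0, had a median of -0.04 and an SD over regions of 0.34. Summits at least 2-fold higher on day 7 numbered 1352, or 2.07% of kept regions, and summits at least 2-fold lower numbered 39, or 0.0596%. By the authors' fold, which also divides by the local background, the numbers were 279 higher and 21 lower. A region counts as kept only if it was called on both days, so weak regions with a lower day 7 summit leave the kept set and become losses. At a day 0 scaled summit up to 4, 370 of 3004 kept regions were at least 2-fold higher and 0 were 2-fold lower. Between 4 and 6 it was 701 and 0 of 11460. The smallest called day 7 summit was 18 reads over a background of 6.10, so the 0 up to 4 was fixed in advance. Between 4 and 6 a 2-fold lower kept summit was possible only near the top of the class. Between 6 and 8, 209 of 9221 were 2-fold higher and 9 were 2-fold lower, and between 8 and 12 it was 72 and 20 of 13250. Between 12 and 20, 0 of 13553 were 2-fold higher and 10 were 2-fold lower, and above 20 neither was seen in 14908 regions.

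**Figure D3:**
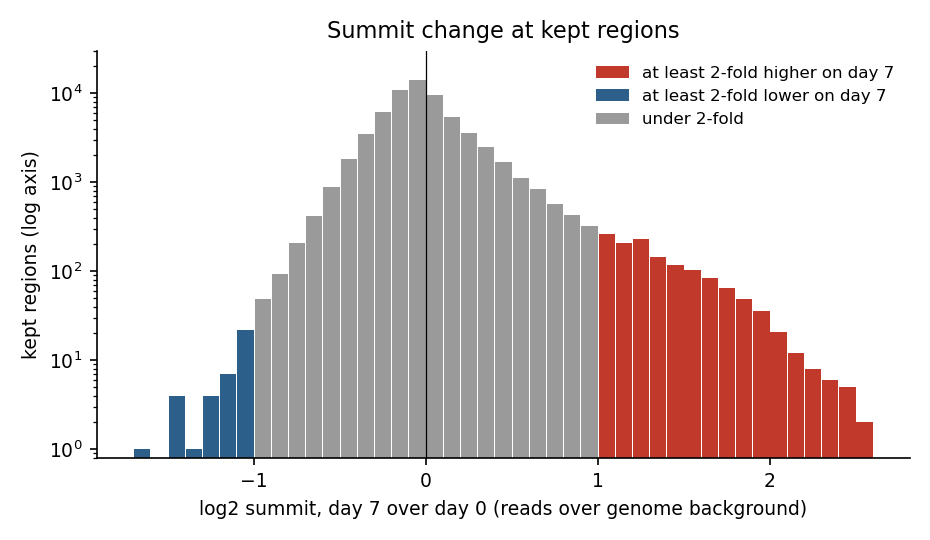
Number of kept regions (vertical axis, log scale) by the log2 ratio of scaled summits, day 7 over day 0 (horizontal axis), with changes of at least 2-fold coloured. The distribution is centred near 0, at a median of -0.04, with 1352 regions at least 2-fold higher and 39 at least 2-fold lower on day 7.

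The 8 kept regions with the highest ratios had 110 to 132 reads on day 7 and were weak peaks of 20 to 25 reads on day 0. At chr3:67980505-67981870 the summit held 125 reads on day 7 against 22 on day 0, a ratio of 5.91 (3.73 to 9.76), and the fold was 10.6 on day 7 against 3.13 on day 0. At chr14:52817913-52819168 it held 123 reads on day 7 and 23 on day 0, with 81 on day 1 and 113 on day 3, so day 7 was its highest day, by reads and by scaled summit. It was the exception: the other 7 had a higher scaled summit on day 3 than on day 7, such as 26.9 on day 3 and 18.2 on day 7 at chr4:4811843-4812962 and 26.9 on day 3 and 21.6 on day 7 at chr1:204606322-204607440. At chr2:149030632-149031534, 122 reads on day 7 stood against 23 on day 0, and at chr1:204606322-204607440 132 stood against 25. By fold the ratios of the 8 ran from 1.49 to 3.39. Their local background was also higher on day 7, by 3.75 times at chr5:78223364-78224079.

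The 8 kept regions with the lowest ratios had 24 to 33 reads on day 7 and 59 to 92 on day 0. At chr7:54731902-54732980 the summit held 24 reads on day 7 against 64 on day 0, a ratio of 0.390 (0.233 to 0.632), with 59 reads on day 1 and 48 on day 3. Its local background was the genome level on every day, and its fold was 3.52 on day 7 against 8.85 on day 0, the only site of the 8 that was more than 2-fold lower on both scales. At chr8:1576513-1577129, 26 reads on day 7 stood against 83 on day 0, after 106 on day 1 and 79 on day 3. At chr18:77179945-77180771 it was 27 on day 7 against 78 on day 0, after 64 on day 1 and 37 on day 3. Chr22:42896064-42896840 had 31 reads on day 7 and 91 on day 0, and chr21:47453539-47454133 had 24 on day 7 and 59 on day 0. The other 3 of the 8 lay close together on chromosome 5. These sites were picked from 65396 on this ratio, so their intervals are no test of it.

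Counting intervals of the ratio lay wholly above 1 at 3296 kept regions (5.04%) and wholly below 1 at 1106 (1.69%). Counting error alone allows up to 2.5% on each side, or 1635 regions, and the number of lower regions is below that. The higher regions had median scaled summits of 5.68, 14.2, 15.02 and 12.1 for days 0, 1, 3 and 7. The lower regions had medians of 14.0, 12.9, 10.9 and 9.18. The comparisons of each induced day share the day 0 list, and the 2 sets were chosen on days 0 and 7.

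The largest group of lower regions, joined where they lay no more than 50 kb apart, was chr5:124708433-124761326. All 9 kept regions in these 52.9 kb were lower on day 7, with ratios of 0.370 to 0.746 and counting intervals wholly below 1, and the other 2 day 0 peaks in the span were lost. No peak was gained there. The median scaled summit of the 9 was 14.5, 15.6, 11.2 and 8.36 in the order of days. At chr5:124712678-124713248 the summit held 137, 124, 96 and 66 reads on days 0, 1, 3 and 7, at chr5:124721784-124722521 it held 92, 74, 57 and 33, and at chr5:124760099-124761326 it held 87, 84, 69 and 31. Day 7 was the lowest day at all 9, by reads and by scaled summit. At chr5:124757862-124758539 day 1 was below day 3, with 68, 35, 40 and 27 reads. The tallest summit of the span, at chr5:124748465-124749016, held 126 reads on day 7 against 184 on day 0. The local background of the 9 was lower as well, at a median of 0.584 times that of day 0, and by fold only 5 of the 9 were lower on day 7, with a median ratio of 0.972.

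Within 250 kb on either side most kept regions had ratios above 1. Before the group it was 5 of 7, 3 of them with intervals above 1, and 4 peaks were gained and 2 lost. After it, it was 5 of 6, 2 of them with intervals above 1, and 3 peaks were gained and 1 lost. The strongest of these flanking sites, chr5:125004469-125005251, held 24, 176, 176 and 98 reads on days 0, 1, 3 and 7, a day 7 ratio of 4.25. The 1 lower region after the group, chr5:124819905-124821639, had 120 reads on day 7 against 177 on day 0, a ratio of 0.705. The flanking kept regions were weaker on day 0, with a median scaled summit of 3.78 on either side, against 14.5 within the group. Over the genome, kept regions with a day 0 scaled summit up to 4 had a median log2 ratio of 0.37. The group and its flanks are thus not compared at equal height.

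**Figure D4:**
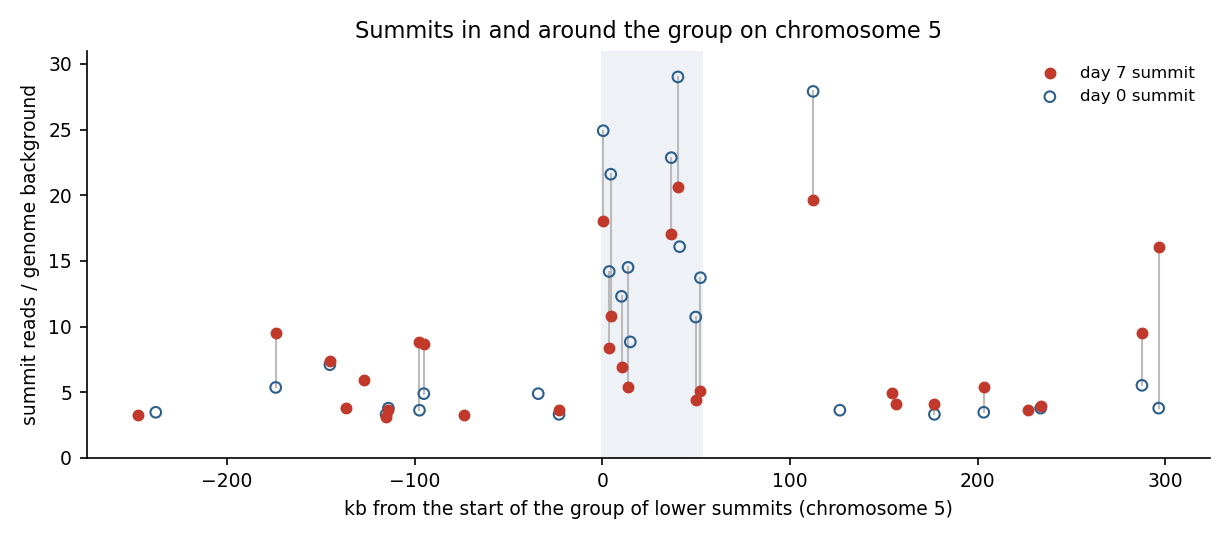
Summit reads over genome background (vertical axis) of every day 7 peak (filled) and day 0 peak (open) in and around the group of lower regions on chromosome 5, by distance in kb from its start (horizontal axis); lines join the 2 days of a kept region and the shaded band is the group. All 9 kept regions in the band are lower on day 7, and 10 of the 13 kept regions outside it are higher. Those outside were weaker on day 0, at a median scaled summit of 3.78 on either side against 14.5 in the band.

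Other groups of lower regions were smaller. At chr10:21273508-21359943, 10 of 11 kept regions had ratios below 1, 7 of them with intervals wholly below 1. There 3 day 0 peaks were lost and 2 peaks were gained, and the median scaled summit of the kept regions was 14.7, 12.6, 11.0 and 8.36 on days 0, 1, 3 and 7. At chr3:46419880-46469808 all 6 kept regions were lower, with ratios of 0.527 to 0.689, and 1 day 0 peak was lost. On chr19:4539496-4660863, 14 of 16 had ratios below 1, 6 of them with intervals below 1. On chr6:27499689-27570766 it was 10 of 12, 6 of them with intervals below 1, and both groups had milder ratios. The median log2 ratio was -0.04 over all kept regions and -0.10 over those of chromosome 19, so ratios below 1 were common. Of the 3296 higher regions, 130 groups held at least 3, and of the 1106 lower regions, 39 groups did. The largest group of higher regions was chr6:110812627-110918368, where all 14 kept regions had ratios above 1, 12 of them with intervals wholly above 1. There 9 peaks were gained and 0 lost, and the median scaled summit was 9.85, 14.7, 13.4 and 15.8 on days 0, 1, 3 and 7. At chr1:185510510-185615863 all 8 kept regions had ratios above 1, 6 of them with intervals above 1, and the medians were 9.14, 12.4, 13.3 and 15.4. In both groups day 7 was the highest day. At chr12:76099678-76219967, 7 of 7 kept regions had ratios above 1, 6 of them with intervals above 1. There day 7 was not the highest day, with medians of 4.89, 13.2, 13.2 and 11.0.

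Chromosomes differed widely in their share of gains and little in their share of losses. Over 22 autosomes and X, gained peaks made up 17.3% to 43.5% of a chromosome's day 7 peaks, and lost peaks 14.7% to 20.7% of its day 0 peaks. Chromosome 13 had the highest share of gains, 43.5% (41.6 to 45.5), and chromosome 19 the lowest, 17.3% (16.2 to 18.5), with intervals that do not overlap. Yet chromosome 19 lost 16.9% of its day 0 peaks, close to the 17.5% of all 23 chromosomes. Its 711 gains barely exceeded its 687 losses, where all 23 together had 2.60 gains per loss. Chromosome 19 had 4105 day 7 peaks and 4076 day 0 peaks. With kept peaks paired nearly 1 to 1, lists of such similar length must give near equal numbers. Strong gains were scarcer still there, with 20 of 670 day 7 peaks of fold at least 6 gained (2.99%), against 2219 of 19191 (11.6%) over all 23. Kept regions of chromosome 19 had a median log2 summit ratio of -0.10, and their intervals were above 1 at 47 of 3325 (1.41%) and below 1 at 136 (4.09%). Chromosomes 17 and 22 followed, with 28.1% and 29.0% gained. Chromosome X stood low on both counts, with 29.6% gained and 14.7% lost.

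Chromosome 19, known for its dense genes and its clusters of zinc finger genes, had 24.6 protein-coding genes per Mb, and chromosome 13 had 2.94. These densities divide RefSeq gene counts by nearly the whole length of each chromosome, so stretches without peaks count in the length. Across the 23 chromosomes Spearman's rho with gene density was -0.87 for the share gained, -0.23 for the share lost, and -0.77 for the median log2 summit ratio. Without chromosome 19 these were -0.85, -0.15 and -0.73. The share gained was also 48.8% for day 7 peaks with a local background at the genome level and 11.6% for those above 3 times that level. Peak height and local background were not compared between chromosomes. The chromosomes share the same pair of lists and differ in base composition, which was not analysed here, so the values are descriptive.

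**Figure D5:**
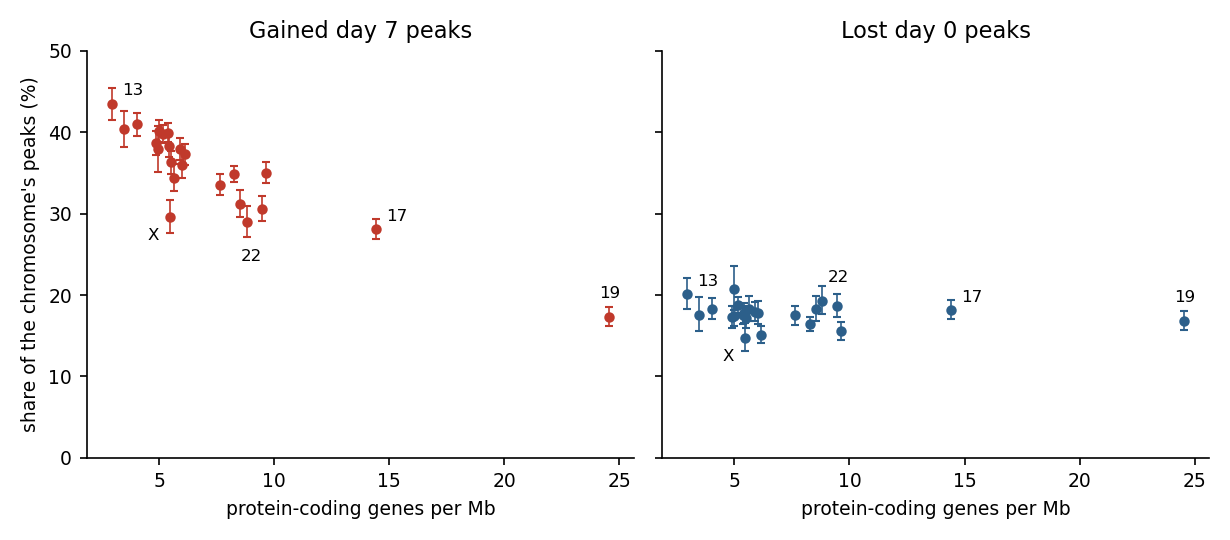
Share of each chromosome's day 7 peaks that were gained (left) and of its day 0 peaks that were lost (right), in %, against protein-coding genes per Mb, for 22 autosomes and X; bars are exact 95% intervals over peaks. Gained shares run from 43.5% on chromosome 13 to 17.3% on chromosome 19, while lost shares stay between 14.7% and 20.7%.

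Windows of a fixed size were counted in the same way. Of 1410 windows of 1 Mb with at least 20 day 0 peaks, 1264 had more gains than losses and 36 had as many. The other 110 had more losses, 22 of these among the 46 windows of chromosome 19. Kept peaks pair nearly 1 to 1, so this count mostly restates which list had more peaks in a window. The windows below were chosen by these counts. Between 27 and 28 Mb of chromosome 11, 63 of 83 day 7 peaks were gained and 2 of 23 day 0 peaks were lost. Between 153 and 154 Mb of chromosome 5, 56 of 79 were gained and 3 of 26 lost. On the side of losses, the window at 1 to 2 Mb of chromosome 19 had 14 of 140 gained and 30 of 159 lost, that at 50 to 51 Mb of chromosome 22 had 15 of 86 gained and 28 of 101 lost, and that at 13 to 14 Mb of chromosome X had 4 of 31 gained and 15 of 44 lost. The highest share of losses was at 104 to 105 Mb of chromosome 6, where 17 of 34 day 7 peaks were gained and 16 of 33 day 0 peaks (48.5%) were lost.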

How the data were processed

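The authors deposited 1 file of narrowPeak layout that joins 4 peak lists. Per the submitters' processing notes, the tools were Bowtie2, deepTools and MACS2 2.1.1.20160309 with build hg19. Alignment filters and any pooling of the 2 replicates before calling were not given in the sources used here. Deposited values per peak were the authors' score, the fold (a ratio to local background), the -log10 of the p-value, the -log10 of the q-value and the summit offset in bp. Summit reads were recovered as the whole number that gives the deposited fold and -log10 p together. The fit was within 0.005 in -log10 p for every peak, and the recovery was tested on simulated data. The background value most common in a list was taken as its genome-wide background. Overlaps of at least 1 bp were checked with bedtools 2.31.1. Ratios have exact conditional binomial intervals, which PCR copies would make too narrow. Software was SciPy 1.17.1, pandas 2.3.3 and NumPy 2.4.6 under Python 3.11.15. RefSeq GRCh38.p14 served only for gene counts per chromosome, so no gene is named at a region and no sequence is printed. Named regions are the lost peaks with a fold of at least 6, the 15 gained peaks with the highest fold, the 5 of each with most reads, the 8 highest and 8 lowest kept ratios, and the largest groups. Members and lists were chosen with earlier results of these data known, and the groups of kept regions, windows and chromosomes were examined after values had been seen. Chromosome Y, with few peaks, was left out of the chromosome values.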

Additional observations from a re-analysis of the deposited data

How the results depend on the processing

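The counts of gained and lost peaks kept within 1.5 times under both stricter overlaps, a -log10 q of at least 5 in both lists, an equal -log10 p limit and without chromosome 19 (the last 2 chosen after seeing the data). They moved further in 4 settings, each of which asks fewer peaks. With lists of the same length 21397 peaks were gained, where near equal numbers of gains and losses follow from the construction. Asking only peaks with a -log10 q of at least 5 for a counterpart of any strength gave 8899 lost. A fold of at least 4 gave 10302 gained and 866 lost, and a fold of at least 6 gave 2228 gained and 12 lost. Of kept regions, 1352 were at least 2-fold higher and 39 lower. By fold over local background these were 279 and 21, and by a counting interval on 1 side of 1 they were 3296 and 1106. With a reciprocal overlap of at least 50%, 563 were higher. By construction this rule drops any pair of peaks whose widths differ more than 2-fold. What else moved these numbers was not tested. Of the 16 named kept regions, all kept their direction by fold, and 14 moved outside their counting interval by fold. Centring on the median shifts every ratio by the same small factor, so it could not reverse regions picked for extreme ratios. No list held overlapping entries, so joining them changed nothing. No paired analysis was possible because the file holds 1 list per day and no value per replicate, and for the same reason no replicate could be left out. Peaks near 18 reads carry wide counting error, and a loss there was not separable from it.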
